A study of Mus musculus with 12 samples.

Results

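The transcripts examined here are those of 10 mouse genes that encode factors of messenger RNA 3′ end formation: Cpsf1, Cpsf2, Cpsf3, Cpsf4, Cpsf6, Cpsf7, Nudt21, Cstf2, Cstf3 and Pcf11. Counted were the clusters of crosslinked reads whose centre lies in the mm10 (GRCm38) gene body of a listed gene, on that gene's strand. Of the 124941 clusters in the authors' 3 tables, 267 met this rule: 82 for Puf60 with exon 5, 91 for Puf60 without exon 5 and 94 for Rbm38. Cpsf6 alone held 63, 59 and 71 of them.

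Most messenger RNAs are cut and given a poly(A) tail by a machinery built of several complexes. The cleavage and polyadenylation specificity factor (CPSF) binds the polyadenylation signal and holds the nuclease, cleavage factor I (CFIm) binds upstream of the cut and influences which of several sites is used, and the cleavage stimulation factor (CstF) binds downstream of it. Cleavage factor II, which contains Pcf11, links cleavage to the end of transcription.

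Individual-nucleotide resolution crosslinking and immunoprecipitation with sequencing (iCLIP) was carried out in N2A cells, a mouse neuroblastoma line. Each of 3 Flag-tagged proteins was made from a doxycycline-inducible transgene in a Flp-in derivative of these cells (1 µg/ml doxycycline) and crosslinked with 150 mJ/cm2 of ultraviolet light. The CLIP groups were Puf60 with exon 5 (3 libraries, 48 h of induction), Puf60 without exon 5 (3 libraries, 24 h) and Rbm38 (3 libraries, 24 h), all pulled down with the anti-Flag M2 antibody. Each had 1 size-matched input, taken without antibody after 24 h of induction, which makes 12 samples. Puf60 is a splicing factor that binds pyrimidine-rich RNA close to 3′ splice sites. Rbm38 binds RNA as well, and its gene is a known target of p53. Wherever the Puf60 tables are compared, isoform and induction time cannot be told apart, and the input of Puf60 with exon 5 also differs from its CLIP libraries in induction time. Where Puf60 with exon 5 is set against Rbm38, protein and induction time cannot be told apart either. The labels number the replicates but do not say whether they came from separate cultures.

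The authors deposited 1 table per protein that gives each cluster a log2 fold, read here as CLIP over input, with its p-value before and after adjustment. The tables hold no values per library. Depth and replicate spread are therefore unknown, and no difference between tables could be tested against replicate error. A cluster is called enriched at the authors' adjusted p under 0.05. Of the neuroblastoma or sympathetic neuron markers reported here, Hand2, Stmn2, Tubb3, Map1b and Chga had a listed cluster in some table, and Gata3, Isl1, Dbh and Th had none. Of 4 markers of other cell types, Ptprc, Col1a1 and Pecam1 had 1 or 2 listed clusters per table where listed, and Gfap had none. A listed cluster is not an expression level.

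Enriched clusters of Puf60 and of Rbm38 were numerous in Cpsf6, and the other 9 genes held few clusters each. With exon 5, 65 of the 82 clusters were enriched over input, against 39.1% of all clusters in that table. Without exon 5, 58 of 91 were enriched, against 36.1% of the table. For Rbm38 the count was 65 of 94, against 50.9% of the table. Cpsf6 supplied 56, 45 and 48 of these enriched clusters. In the other 9 genes together, 9 of 19, 13 of 32 and 17 of 23 were enriched (47.4%, 40.6% and 73.9%). Clusters of 1 gene share their RNA and are not independent. Adjusting the deposited p-value by Benjamini-Hochberg instead would call 68 of 82 (against 42.9% of the table), 61 of 91 (39.1%) and 78 of 94 (61.6%).

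**Figure D1:**
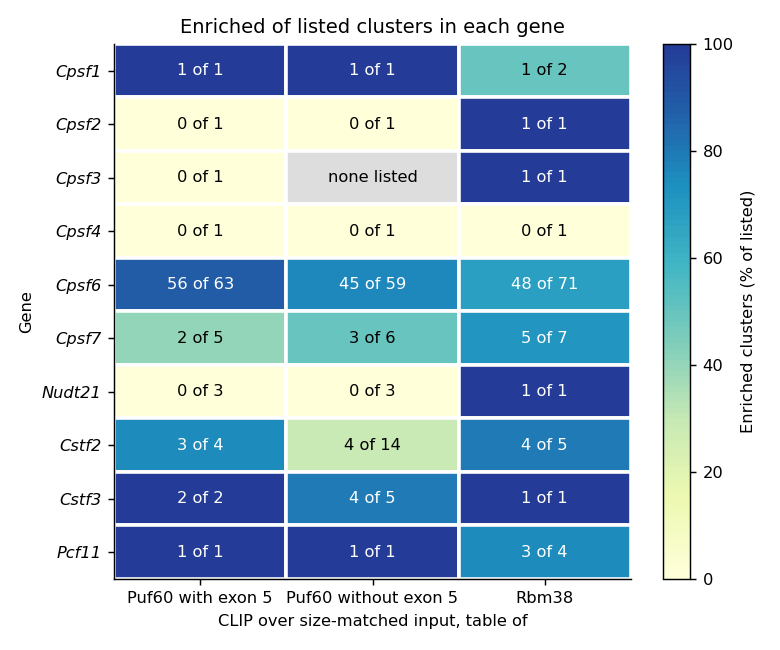
Enriched of listed clusters for each gene (rows) in each table (columns), with the colour giving the enriched share of the listed clusters in percent. Cpsf6 holds 56 of 63, 45 of 59 and 48 of 71, and Cpsf4 has no enriched cluster in any table.

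By gene, 6 of the 10 had an enriched cluster of Puf60 with exon 5, 6 of Puf60 without exon 5 and 9 of Rbm38. Among the 7263 protein-coding genes listed in any table, those shares were 46.8%, 47% and 69.9%. The same 6 genes carried enriched clusters of both Puf60 isoforms: Cpsf1, Cpsf6, Cpsf7, Cstf2, Cstf3 and Pcf11. Rbm38 added Cpsf2, Cpsf3 and Nudt21. Fewer molecules of a transcript and fewer contacts per molecule cannot be told apart where a gene is thinly listed.

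Cpsf6 (gene 432508, chromosome 10, 117344667 to 117376998, minus strand) encodes a larger CFIm subunit with an RNA recognition motif and an arginine/serine-rich tail. Counting clusters that lie in no other gene on the same strand, it ranked 3 of 3399 protein-coding genes by number of enriched clusters of Puf60 with exon 5, 5 of 3411 without exon 5 and 16 of 5074 for Rbm38. Enriched clusters numbered 17.3, 13.9 and 14.8 per 10 kb of its gene body and covered 5950, 4250 and 4850 nt. In the authors' deposited tables, the enriched clusters had log2 folds from 0.65 to 4.11 with exon 5 (median 2.67), from 1.12 to 4.48 without exon 5 (median 2.64) and from 0.53 to 3.94 for Rbm38 (median 1.94).

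The strongest sites of the proteins lay in different parts of Cpsf6. With exon 5, the highest log2 fold per the authors' deposited table was 4.11 at 117361336 to 117361535, 16768 nt from the annotated 3′ end. The same stretch had 3.39 without exon 5, and the Rbm38 cluster inside it had -0.07 and was not enriched, per the authors' deposited tables. The highest without exon 5 was 4.48 at 117364686 to 117364835 per the authors' deposited table, 20093 nt from that end. Rbm38 had its highest, 3.94, at 117348986 to 117349335 per the authors' deposited table, 4493 nt from the end. All 3 proteins were enriched at the end itself, with clusters centred 143, 168 and 143 nt from it at log2 folds of 3.45, 3.17 and 2.71 per the authors' deposited tables.

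Along the gene, the log2 fold of listed Puf60 clusters was higher upstream and that of listed Rbm38 clusters was higher toward the 3′ end. Going from the 3′ end in windows of 5000 nt, the median log2 fold of the listed clusters of Puf60 with exon 5 was 1.99, 2.5, 2.92, 2.95 and 3.25 per the authors' deposited table. Without exon 5 the corresponding medians were 0.58, 1.77, 2.70, 2.81 and 2.90 per the authors' deposited table. For Rbm38 they ran the other way, at 1.91, 1.75, 1.58, 0.64 and 0.54 per the authors' deposited table. The counts behind these medians are small, with 19, 19, 9, 13 and 3 clusters with exon 5, 15, 19, 11, 11 and 3 without exon 5, and 25, 24, 8, 9 and 5 for Rbm38. The enriched among them were 13, 19, 9, 12 and 3 with exon 5, 7, 15, 10, 10 and 3 without exon 5, and 19, 16, 5, 6 and 2 for Rbm38. Without exon 5, the first 5000 nt thus held 7 enriched clusters of 15, whereas each other window had most of its clusters enriched. Over the enriched clusters alone, the Rbm38 medians were 2.2, 2.1, 1.8, 0.98 and 1.9, so the last window was not the lowest, per the authors' deposited table. The medians of enriched clusters of each Puf60 isoform rose from window to window.

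**Figure D2:**
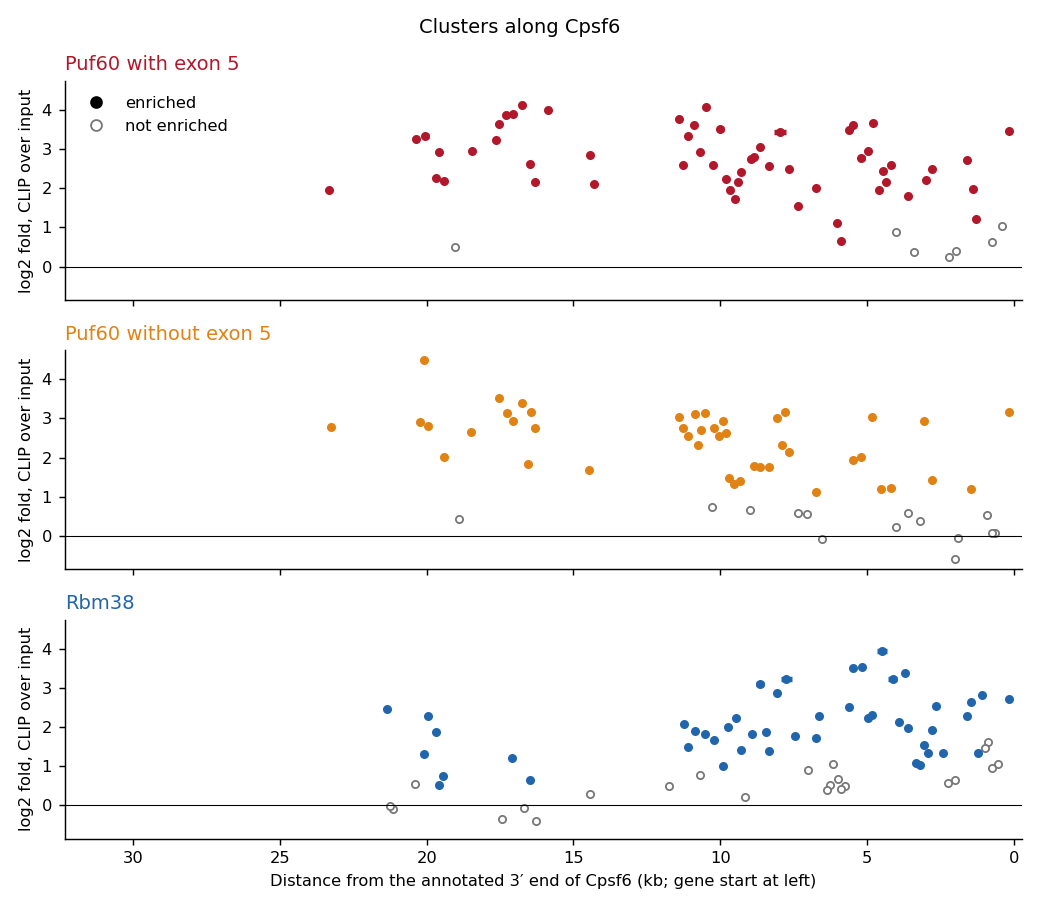
Log2 fold of CLIP over input (vertical axis) for each listed cluster of Cpsf6 against its distance in kb from the annotated 3′ end (horizontal axis, gene start at left), with filled points for enriched clusters and open points for the others. Bars behind the points give the cluster width. No table lists a cluster in the 8963 nt nearest the gene start.

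Parts of Cpsf6 had no cluster in any table. The 5′ stretch from 117368036 to 117376998, 8963 nt long, held none, and the longest such stretch between clusters was the 2500 nt from 117356436 to 117358935. Exons and introns of the gene were not used here, so these stretches are given by position alone.

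Enriched stretches of Cpsf6 were partly shared. The same shares of nucleotides were not computed for other genes, so they have no base to be set against. Nucleotides enriched with both isoforms numbered 3700, which is 62.2% of those with exon 5 and 87.1% of those without exon 5. Puf60 with exon 5 and Rbm38 shared 3050 nt, 51.3% of the Puf60 total and 62.9% of the Rbm38 total. Puf60 without exon 5 and Rbm38 shared 2450 nt, 57.6% and 50.5% of their totals. All 3 proteins were enriched over 2250 nt, out of 8100 nt enriched for any of them. Rbm38 alone was enriched over 1600 nt, 33.0% of its total.

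Enriched Puf60 clusters overlapped enriched Rbm38 clusters more often in Cpsf6 than over the whole tables. In the other 9 genes the clusters were few, and the intervals of their shares include the whole-table shares. In Cpsf6, at least 1 nt was shared with an enriched Rbm38 cluster by 37 of the 56 clusters enriched with exon 5 (66.1%, exact binomial 95% interval 52.2 to 78.2), and by 31 of 45 without exon 5 (68.9%, 53.4 to 81.8). Over the whole tables these shares were 22.2% and 20.0%. In the other 9 genes, 1 of 9 clusters with exon 5 (11.1%, 0.281 to 48.2) and 3 of 13 without exon 5 (23.1%, 5.04 to 53.8) met an enriched Rbm38 cluster. The difference between Cpsf6 and the others was not tested. The intervals cover counting error only, and how much overlap the dense placement of clusters in Cpsf6 gives was not tested. Between the isoforms, over all 10 genes, 45 of 65 enriched clusters with exon 5 (69.2%, 56.6 to 80.1) overlapped an enriched cluster without exon 5, and 50 of 58 in the opposite direction (86.2%, 74.6 to 93.9), beside 64.2% and 63.7% in the whole tables. With at least 50% of both clusters required, the second share was 69.0%, and the shares with Rbm38 over the 10 genes were 33.8% and 39.7%, against 58.5% and 58.6% at 1 nt. The whole-table shares above are for the 1 nt rule and are no base for those at 50%.

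In Cpsf6 the log2 fold was mostly higher for Puf60 with exon 5 than without it, by more than in matched clusters generally. A cluster of each table was paired with the one it overlapped most, if that choice was mutual, which gave 41 pairs in Cpsf6. The fold with exon 5 was higher in 34 of them, and the median of the differences with minus without was 0.71, per the authors' deposited tables. Over the 20187 matched pairs of the tables the median was 0.10 and the fold with exon 5 was higher in 11379, per the authors' deposited tables. Enrichment was called in both tables at 36 of the 41 pairs, with exon 5 only at 2, without exon 5 only at 0 and in neither at 3. Over all 20187 pairs the corresponding counts were 8822, 1106, 850 and 9409. The 19 pairs whose clusters had the same start and end gave a median difference of 0.79, with 16 higher with exon 5, per the authors' deposited tables. All 13657 such pairs of the tables gave 0.08, with 7559 higher with exon 5, per the authors' deposited tables. Among 146 protein-coding genes with at least 10 matched pairs enriched in at least 1 table, the gene medians ran from -0.78 to 0.72, with their own median at 0.08, and Cpsf6, with 38 such pairs, was the highest, in values per the authors' deposited tables. Whether this exceeds the spread between libraries is unknown.

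**Figure D3:**
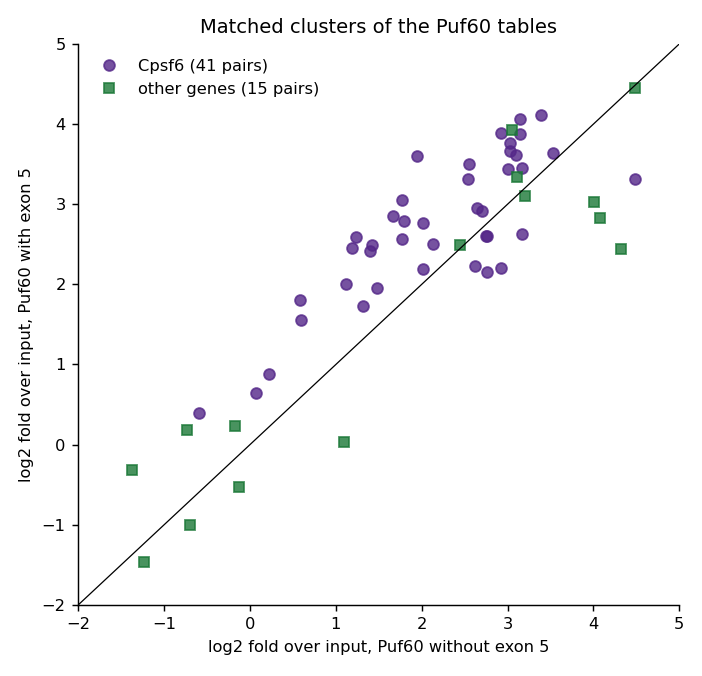
Log2 fold over input with exon 5 (vertical axis) against without exon 5 (horizontal axis) for matched clusters, with the diagonal marking equal values. Of the 41 pairs in Cpsf6 (circles) 34 lie above the diagonal, and of the 15 pairs in the other genes (squares) 6 do.

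The pair of widest difference in each direction is given for Cpsf6. At 117350086 to 117350185, the log2 fold per the authors' deposited tables was 3.60 with exon 5 and 1.95 without exon 5, a difference of 1.65, and Rbm38 had 3.51 there. The widest difference of the opposite sign, -1.16, was at 117364586 to 117364835 with exon 5 (3.32) and 117364686 to 117364835 without exon 5 (4.48) per the authors' deposited tables. The clusters of this pair differ in extent. The pairs within 10000 nt of the 3′ end were higher with exon 5 in 22 of 24 cases, with a median difference of 0.83, and those farther away in 12 of 17 cases, with a median difference of 0.30, per the authors' deposited tables. This division at 10000 nt was made after the values were seen.

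Relative to Rbm38, both isoforms were higher in the upstream part of Cpsf6. At 10000 nt or more from the 3′ end, the log2 fold with exon 5 was above that of Rbm38 in 15 of 15 matched pairs (median difference 2.14) and that without exon 5 in 12 of 12 (median difference 1.35), per the authors' deposited tables. Closer to the 3′ end, Puf60 with exon 5 was higher in 16 of 28 pairs (median difference 0.25) and Puf60 without exon 5 in 6 of 24 (median difference -0.76), per the authors' deposited tables. Over all matched pairs of the tables, the median difference to Rbm38 was -0.64 with exon 5 and -0.92 without exon 5, per the authors' deposited tables. Over pairs enriched in both tables the sign was opposite, with medians of 0.18 (2833 pairs) and 0.09 (2574 pairs). In Cpsf6 such pairs gave 0.65 (34 pairs) and 0.38 (27 pairs), all per the authors' deposited tables.

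**Figure D4:**
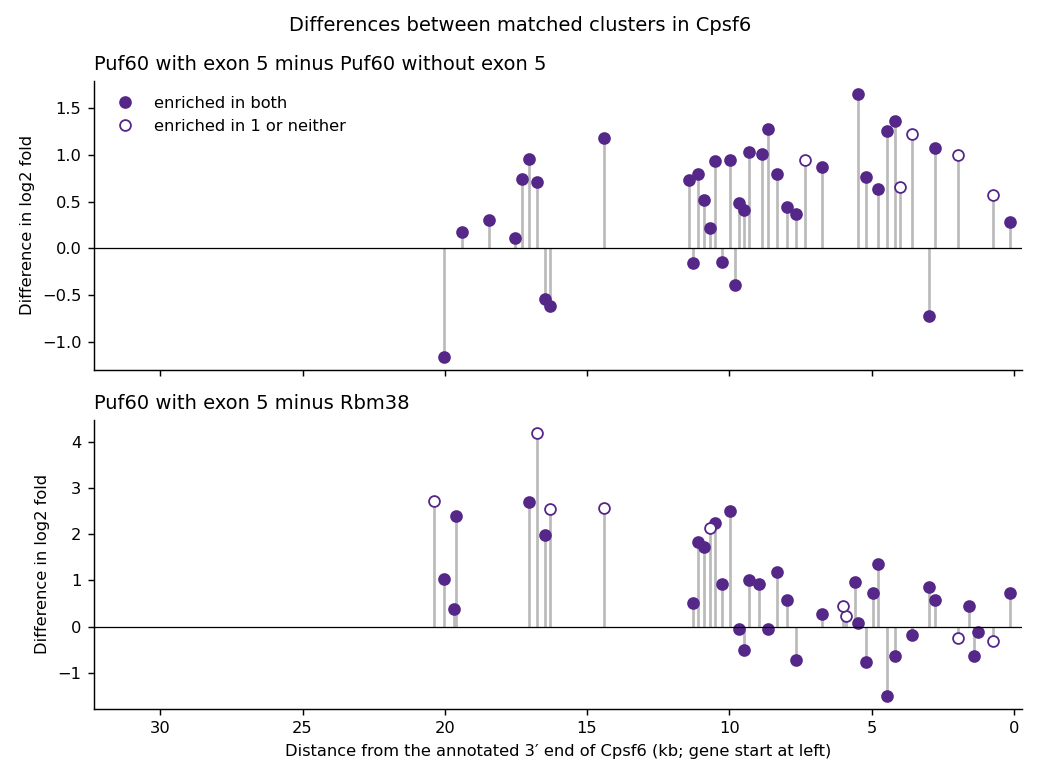
Difference in log2 fold between matched clusters of Cpsf6 (vertical axis) against distance in kb from the annotated 3′ end (horizontal axis), for Puf60 with minus without exon 5 (top) and Puf60 with exon 5 minus Rbm38 (bottom). Filled points were enriched in both tables. In the bottom panel all 15 pairs at 10 kb or more lie above 0.

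The other CFIm genes differed from Cpsf6 and from each other. Nudt21 (gene 68219, chromosome 8, 94019403 to 94037039, minus strand) encodes the small CFIm subunit that recognises the RNA motif of the complex. Both Puf60 tables listed clusters next to its 3′ end, from 94019436 to 94019735, and none was enriched. Their log2 folds were -0.32, -1.0 and 0.03 with exon 5 and -1.37, -0.70 and 1.09 without exon 5, per the authors' deposited tables, so 4 of the 6 lay below 0. The value of 1.09 had a p-value of 0.0010 and an adjusted p of 1, per the authors' deposited table. The single Rbm38 cluster of Nudt21, at 94019436 to 94019635, was enriched, with a log2 fold of 4.45 (adjusted p = 5.7e-210) per the authors' deposited table, the highest of Rbm38 in any of the 10 genes.

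Cpsf7 (gene 269061, chromosome 19, 10525223 to 10547735, plus strand) encodes the CFIm subunit that can take the place of the Cpsf6 protein. Puf60 with exon 5 was enriched at 2 places of it, and Puf60 without exon 5 at these and at another. At the first, the log2 fold was 2.83 with exon 5, at 10535351 to 10535400, and 4.08 without exon 5, at 10535301 to 10535400, 12384 nt from the 3′ end, per the authors' deposited tables. At the next it was 3.03 with exon 5, at 10545251 to 10545300, and 4.01 without exon 5, at 10545201 to 10545300, per the authors' deposited tables. That other place, 10545751 to 10545800, gave log2 folds of 2.58 without exon 5 and 1.65 for Rbm38, per the authors' deposited tables, and Puf60 with exon 5 listed no cluster there. Around the first place Rbm38 was enriched too, with its highest log2 fold of 2.62 at 10535201 to 10535250 and 2.28 at 10535301 to 10535400, per the authors' deposited table. It listed no cluster at the middle place. In the last 1000 nt the log2 folds of Puf60 were 0.23 and 0.18 with exon 5 and -0.18, -0.29 and -0.73 without exon 5, none enriched, and those of Rbm38 were 1.20, 0.35 and 2.01, of which the first and the last were enriched, per the authors' deposited tables. The gene Tmem216 lies on the opposite strand over 13 of the Cpsf7 clusters, which are kept apart from it by the inferred strand alone.

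The CPSF genes had few listed clusters, at most 2 per gene and table. Cpsf1 (gene 94230, chromosome 15, 76595808 to 76607661, minus strand as inferred from its clusters), which encodes the scaffold of the complex, had 1 Puf60 cluster at 76601036 to 76601085, 5252 nt from the 3′ end, in both tables. Its log2 fold was 2.44 with exon 5 and 4.32 without exon 5 per the authors' deposited tables, the widest difference between the isoforms in any matched pair of the 10 genes (-1.88). Rbm38 was enriched in Cpsf1 at another place, 602 nt from the 3′ end, with a log2 fold of 1.59 per the authors' deposited table. Cpsf2 (gene 51786, chromosome 12, 101975759 to 102005993, plus strand) encodes a subunit related to the nuclease but without its activity. At 102003901 to 102003950, 2067 nt from the 3′ end, its log2 fold was -0.29 for Puf60 without exon 5, not enriched, and 3.43 for Rbm38, enriched, per the authors' deposited tables. The only Cpsf2 cluster of Puf60 with exon 5, elsewhere in the gene, had a log2 fold of -0.69 per the authors' deposited table.

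Cpsf3 (gene 54451, chromosome 12, 21286273 to 21315056, plus strand), the nuclease that cuts the messenger RNA, had a cluster at 21300101 to 21300150 with log2 folds of 0.17 with exon 5, not enriched, and 0.82 for Rbm38, enriched, per the authors' deposited tables. Puf60 without exon 5 listed none there. Cpsf4 (gene 54188, chromosome 5, 145167213 to 145182041, plus strand) encodes a zinc finger subunit that helps to bind the polyadenylation signal. It had 1 cluster per table, none enriched, with log2 folds of -1.47 with exon 5, -1.23 without exon 5 and -0.63 for Rbm38 per the authors' deposited tables. Cpsf4 was the only one of the 10 genes with no enriched cluster in any table.

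In the CstF genes, enriched Puf60 clusters lay more than 5000 nt from the 3′ end. Cstf2 (gene 108062, chromosome X, 134059176 to 134086822, plus strand) encodes the subunit that binds the sequence downstream of the cut. Its strongest Puf60 cluster had a log2 fold of 4.45 with exon 5, at 134080451 to 134080500, and 4.49 without exon 5, at 134080401 to 134080500, per the authors' deposited tables. Next to these, at 134080701 to 134080750, the values were 3.10 with exon 5 and 3.20 without exon 5, and at 134072601 to 134072650 they were 2.49 and 2.45, per the authors' deposited tables. The differences with minus without exon 5 were thus -0.04, -0.09 and 0.05, per the authors' deposited tables. Puf60 without exon 5 was also enriched at 134081151 to 134081200, with a log2 fold of 3.02 per the authors' deposited table, where Puf60 with exon 5 listed no cluster. Rbm38 was highest in Cstf2 at 134086701 to 134086800, 71 nt from the 3′ end, with a log2 fold of 3.85 per the authors' deposited table. Its other enriched clusters there, at 134081001 to 134081050, 134081101 to 134081150 and 134084801 to 134084850, had 2.79, 0.78 and 2.75, per the authors' deposited table. In the last 2000 nt Puf60 with exon 5 listed 1 cluster and Puf60 without exon 5 listed 8, none enriched. Nox1 lies on the opposite strand over 4 Cstf2 clusters at the end of the gene.

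Cstf3 (gene 228410, chromosome 2, 104590484 to 104665425, plus strand) encodes the CstF subunit that bridges the complex. Its Puf60 clusters gathered at 104608851 to 104609350, with centres 56099 to 56549 nt from the 3′ end, apart from 1 cluster at the gene start. In that group the highest log2 fold was 3.93 with exon 5, at 104608851 to 104608900, where it was 3.05 without exon 5, per the authors' deposited tables. The highest without exon 5 was 3.38 at 104590601 to 104590650, 141 nt from the gene start, where Puf60 with exon 5 had no cluster, per the authors' deposited table. Rbm38 had 1 enriched cluster in the gene, at 104609201 to 104609250, where the log2 fold was 1.23 for Puf60 without exon 5 and 1.14 for Rbm38 per the authors' deposited tables. Cstf3 had no listed cluster within 2000 nt of its 3′ end in any table.

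Pcf11 (gene 74737, chromosome 7, 92643458 to 92670080, minus strand) encodes the cleavage factor II subunit that binds RNA polymerase II. Each isoform had the same single cluster, at 92665836 to 92665885, with a log2 fold of 3.34 with exon 5 and 3.11 without exon 5 per the authors' deposited tables. The enriched Rbm38 clusters lay at both ends of the gene and not at this place. The highest of them was 902 nt from the 3′ end, at 92644336 to 92644385, with a log2 fold of 3.48, and those near the gene start had 2.41 and 2.35, per the authors' deposited table. The long noncoding RNA gene Gm26944 lies on the opposite strand at the first of these clusters.

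**Figure D5:**
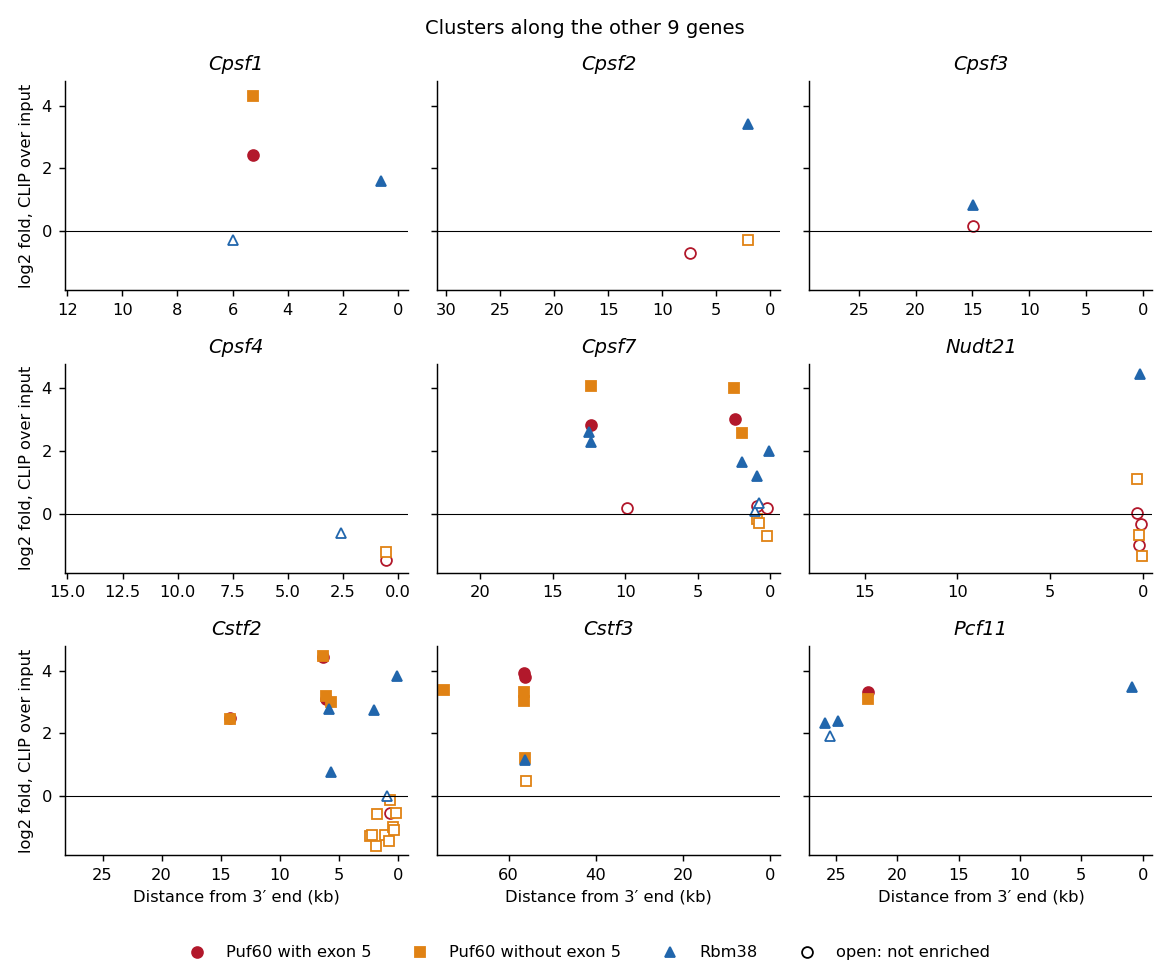
Log2 fold of CLIP over input (vertical axis) against distance in kb from the annotated 3′ end (horizontal axis, gene start at left) for the other 9 genes, with circles for Puf60 with exon 5, squares for Puf60 without exon 5 and triangles for Rbm38. Open symbols were not enriched. Near the 3′ ends of Nudt21 and Cstf2 the Puf60 symbols are open, and the Rbm38 triangles stand at 4.45 and 3.85.

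Across the 10 genes, enriched Puf60 clusters were scarce at 3′ ends where its unenriched clusters were common. Within 2000 nt of the 3′ end lay 4 of 65 enriched clusters with exon 5 (6.15%, exact binomial 95% interval 1.70 to 15.0) and 10 of 17 that were not enriched. Without exon 5 the counts were 3 of 58 (5.17%, 1.08 to 14.4) and 20 of 33. For Rbm38 they were 13 of 65 (20.0%, 11.1 to 31.8) and 8 of 29. Of these 8 unenriched Rbm38 clusters, 5 lay in Cpsf6. All 5 would be called enriched if the deposited p-value were adjusted by Benjamini-Hochberg, so the Rbm38 counts depend on the authors' adjusted p. In all protein-coding genes the enriched and unenriched shares were 15.2% and 29.9% with exon 5, 15.2% and 34.6% without exon 5, and 43.4% and 10.0% for Rbm38. Cpsf6 holds enriched clusters up to 23343 nt upstream of its 3′ end. Leaving out Cpsf6, the counts were 0 of 9 enriched (upper limit 33.6%) and 7 of 10 unenriched with exon 5. They were 1 of 13 and 15 of 19 without exon 5, and 8 of 17 and 3 of 6 for Rbm38. By gene, an enriched cluster in this last stretch was found with exon 5 in Cpsf6, without exon 5 in Cpsf6 and Cpsf7, and with Rbm38 in Cpsf1, Cpsf6, Cpsf7, Nudt21, Cstf2 and Pcf11. The shares of all listed protein-coding genes with such a cluster were 13.9%, 14.2% and 50.9%, so 1, 2 and 6 of 10 are near them.

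A further 16 genes of 3′ end formation were counted in the same way. Enriched clusters were found in 8 of them with exon 5, 8 without exon 5 and 11 with Rbm38, beside 46.8%, 47% and 69.9% of the listed protein-coding genes. Those shares are over genes with a listed cluster, whereas the 16 include Clp1 and Papolg, which had none. The counts and the shares thus have unlike bases, and whether they differ was not tested. Of the clusters in the 16 genes, 35 of 59, 35 of 69 and 31 of 53 were enriched, beside 39.1%, 36.1% and 50.9% of the tables. Pabpn1, the nuclear poly(A)-binding protein gene, held 8 of 9, 9 of 10 and 5 of 7, with highest log2 folds of 4.67 with exon 5, 3.71 without exon 5 and 3.86 for Rbm38 per the authors' deposited tables. Within 2000 nt of the 3′ end of this gene, which is 4785 nt long, 6 of 6, 7 of 8 and 5 of 7 were enriched. Papola, which encodes the main nuclear poly(A) polymerase, held 8 of 14, 6 of 18 and 5 of 8. Its 5 enriched Rbm38 clusters lay within 2000 nt of the 3′ end, where 1 cluster with exon 5 and none without exon 5 was enriched. Scaf4 and Scaf8 encode RNA polymerase II binding proteins known to restrain the use of early polyadenylation sites. In Scaf4, all 6 clusters of each isoform were enriched and Rbm38 listed none, and Scaf8 held 4 of 7, 6 of 7 and 3 of 7. Rbbp6, whose product activates cleavage, held 1 of 3, 1 of 4 and 5 of 12.

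By the share of enriched clusters and their number in the Puf60 tables, the genes most like Cpsf6 were Pcm1, Rbm26 and Fubp1, at Euclidean distances of 0.23, 0.54 and 0.67 over the share and the log2 number of enriched clusters in the 2 tables. Cpsf6 had 88.9% of its clusters enriched with exon 5 and 76.3% without exon 5. The corresponding shares were 76.6% and 75.8% for Pcm1, which encodes a centriolar satellite protein, 91.8% and 76.7% for Rbm26, which encodes an RNA-binding protein of nuclear RNA surveillance, and 81.4% and 75% for Fubp1, which encodes a single-stranded nucleic acid-binding protein. For Rbm38 the enriched counts were 48 of 71 in Cpsf6, 23 of 68 in Pcm1, 14 of 36 in Rbm26 and 27 of 52 in Fubp1. The ranking did not use Rbm38.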

How the data were processed

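The authors deposited, for each of 3 proteins, clusters with a log2 fold and a p-value, raw and adjusted, per the file headers. That the fold is CLIP over input was read from the columns and the design. The submitters' processing notes name TopHat, edgeR, NCBIM37 and mm10 without versions or roles. How clusters were called, reads collapsed and replicates combined is not given in the sources used here. Depth per library is unknown.

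Cluster starts fall on a 50 nt grid at an offset of 0 (read as plus strand) or 35 (minus), which matched the strand of RefSeq (GRCm38.p6) at 93.5%, 93.6% and 94.4% of enriched clusters in single protein-coding genes. Strands came from RefSeq, or else, as for Cpsf1, from at least 3 clusters with 80% on 1 offset. Coordinates are 1-based. In Pcf11, 1 opposite-strand cluster of Puf60 without exon 5, not enriched, was left out. A cluster was given to a gene by its centre, 3′ ends are those of the gene body, and exons and sequences were not analysed here.

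All 10 genes are named, with the highest cluster per table, and other 3′ end genes with at least 5 enriched clusters. Members, lists and rules were chosen with earlier results of these data known. The tables allow no test of the list or across replicates. Matching and assignment were tested on simulated data (Python 3.11.15, pandas 2.3.3, SciPy 1.17.1). Alternatives were a stricter threshold, Benjamini-Hochberg adjustment of the deposited p-value, a minimum fold, other assignment, overlap and distance rules, and leaving out Cpsf6. Some cell type markers are not reported here.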

Additional observations from a re-analysis of the deposited data

How the results depend on the processing

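Of 43 alternatives to 11 results, 28 left the value within its interval, or a count within 1.5 times. Leaving out Cpsf6, which removes most clusters, gave 9, 13 and 17 enriched clusters with exon 5, without exon 5 and for Rbm38. The same step gave isoform overlaps of 88.9% and 61.5%, overlaps with Rbm38 of 11.1% and 23.1%, 3′ end shares of 0.0% with exon 5 and 47.1% for Rbm38, and a median isoform difference of -0.09 over 15 pairs against 0.50 over all 56, in values from the authors' deposited tables. The sign over the 10 genes therefore rests on Cpsf6. Overlap of 50% of both clusters gave 69.0% of clusters without exon 5 shared with the other isoform and 33.8% and 39.7% shared with Rbm38. A limit of 1000 nt, shorter by construction, gave 3′ end shares of 1.54% with exon 5 and 10.8% for Rbm38. Pairs of the same start and end, added after the data were seen, gave 0.62. No paired analysis was possible because the tables hold no values per library, and replicates could not be left out in turn for the same reason. Depth limits which weakly covered genes are listed at all, and its effect is unknown.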

Other observations

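In the authors' deposited tables, a low p-value did not always come with a low adjusted p-value. Of the 23 Rbm38 clusters of Cpsf6 that were not enriched, 15 had a p-value under 0.05 and an adjusted p of 1 in the authors' deposited table. The cluster at 117345486 to 117345585 had a log2 fold of 1.61 and p = 2.5e-14 with an adjusted p of 1, whereas that at 117364236 to 117364285 had a log2 fold of 0.53 and p = 0.023 with an adjusted p of 0.038, in the authors' deposited table. In Pcf11, the Rbm38 cluster at 92668936 to 92668985, between enriched neighbours, had a log2 fold of 1.91, p = 2.5e-11 and an adjusted p of 1 in the authors' deposited table. Over the 10 genes this combination occurred at 4 of 82 clusters with exon 5, 5 of 91 without exon 5 and 16 of 94 of Rbm38. In the whole tables it occurred at 1806 of 36227, 1684 of 39454 and 5767 of 49260 clusters. The criterion is not given in the sources used here.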
